A study of Mus musculus with 8 samples.

Results

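A set of 6 genes, 1520401A03Rik, Gm15446, Gm4750, Nnt, Entpd4 and Wdfy1, was followed mouse by mouse in striatal RNA, because genes of this kind can be present in some mice of a colony and absent in others. They were chosen by name and selected on their raw counts and on-off pattern in these same 8 libraries, so their levels and fold changes are given as a description and nothing is read from a test on them. Of the 6, 5 had a row among the 31417 genes of the count table. Entpd4, which encodes a nucleotidase of the Golgi and lysosomal membranes, was not analysed here. The samples were 4 Dclk3 knockout (KO) mice and 4 wild-type (WT) mice labelled as the controls of the knockout, all aged 12 months. Each library held the polyadenylated RNA of 1 striatum, and the libraries are called KO 1 to KO 4 and WT 1 to WT 4. Dclk3 encodes a doublecortin-like protein kinase enriched in the striatum. The deleted part of Dclk3, the background strain, the sex and the litters of the mice were not given in the sources used here.

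Inbred laboratory strains kept apart accumulate deletions, duplications and retrocopies. A whole gene inside a deletion gives no transcript in mice with only deleted copies, and a retrocopy can give transcript only in mice that carry it. A duplication changes the number of copies. Nnt is a textbook case in mice of a deletion inside a gene, since C57BL/6J animals lack a run of its exons. It encodes the transhydrogenase of the inner mitochondrial membrane, which makes NADPH. A total over a gene that lacks only some exons need not be low, so Nnt need not look present or absent in such totals. Wdfy1 encodes a protein of early endosomes with WD40 repeats and a FYVE domain that acts as an adaptor in signalling from the Toll-like receptors TLR3 and TLR4. For 1520401A03Rik, a gene known by its clone name, no function was given in the sources used here, and Gm15446 and Gm4750 are known here by what they resemble.

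Gm15446 lies at chr5:109923400-109943936 on the plus strand of GRCm38, the build that is also called mm10, and is annotated as protein coding in GENCODE M21. Its closest relative by transcript was Zfp932, a C2H2 zinc finger gene on the same strand at chr5:109996521-110010411, with 52584 bases between the genes. The best alignment of the 2 transcripts covered 1765 columns at 97.4% identity, with 46 differences. The 90 coding bases shown next are those in which the aligned genes differed most, at 24 positions, and both are read from the plus strand at chr5:109942188-109942277 for Gm15446 and chr5:110008661-110008750 for Zfp932. Capitals mark the bases that differ, and the run ends in the linker between zinc fingers.
Gm15446: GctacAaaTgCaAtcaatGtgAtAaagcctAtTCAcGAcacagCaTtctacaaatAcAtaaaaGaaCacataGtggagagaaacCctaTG
Zfp932: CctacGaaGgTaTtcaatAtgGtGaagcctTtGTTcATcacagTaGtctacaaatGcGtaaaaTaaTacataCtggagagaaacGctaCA

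Gm4750 lies at chrX:152432477-152434676 on the plus strand and is annotated as a transcribed processed pseudogene, that is, a copied mRNA inserted into the genome. Its transcript matched that of Actb, the gene of cytoplasmic beta-actin on chromosome 5, at 86.3% identity over 1916 columns, with 263 differences. It also matched the pseudogene Gm8464, at chrX:152489661-152491860 on the minus strand, over all 2200 bases with 1 difference. A gap of 54984 bases lies between those pseudogenes, and Gm8464 was not analysed here. The first pair shows the 90 coding bases of Actb, without gaps, in which the aligned genes differed most, at 10 positions marked in capitals. They come from chr5:142904378-142904467 on the minus strand for Actb, beside the matching stretch of Gm4750 at chrX:152433439-152433528.
Gm4750: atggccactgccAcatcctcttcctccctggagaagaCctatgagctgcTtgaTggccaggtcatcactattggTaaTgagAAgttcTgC
Actb: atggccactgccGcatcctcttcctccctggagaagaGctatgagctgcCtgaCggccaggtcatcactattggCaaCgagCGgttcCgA
The second pair shows the 41 bases around the only difference between the pseudogenes, at chrX:152434102-152434142 on the plus strand for Gm4750 and chrX:152490195-152490235 on the minus strand for Gm8464.
Gm4750: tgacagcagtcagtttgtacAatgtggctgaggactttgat
Gm8464: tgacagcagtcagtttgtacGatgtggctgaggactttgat

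These likenesses set how far the counts can be assigned to 1 gene. For each gene, the stretches of 31 bases in its GENCODE M21 transcripts were searched for in the transcripts of every other gene. None of the 4204 stretches of 1520401A03Rik were found elsewhere, against 0.670% of those of Nnt and 1.38% of those of Wdfy1. For Gm15446 the share was 42.4%, with 39.7% found in Zfp932. For Gm4750 it was 98.7%, with 98.6% found in Gm8464, so reads of these 2 pseudogenes could hardly be told apart, and the Gm4750 counts are uncertain in that respect. For Entpd4, all 8149 stretches were also present in Entpd4b, a copy 188153 bases away on chromosome 14.

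The 8 libraries held 24441242 to 37145559 counts, and 3 counts, taken as the floor of detection, stood for 0.0808 to 0.123 CPM (counts per 1000000 counts of the library). Levels are given below as CPM scaled by the trimmed mean of M-values (TMM), with 95% exact Poisson intervals that cover counting error only. Dclk3, the targeted gene, had 27.7, 19.6, 20.9 and 22.7 CPM in KO 1 to 4, against 95.2, 117, 80.9 and 86.1 CPM in WT 1 to 4. It was lower in 4 of 4 KO libraries than in any WT library (log2 fold change -2.06, SE 0.14; adjusted p = 0.000773, edgeR quasi-likelihood test with Benjamini-Hochberg adjustment). Each of the 8 spiny neuron markers listed for the striatum was abundant in every library, with Drd1, a dopamine receptor of the direct pathway, at 170 to 207 CPM. The summed level of 5 choroid plexus markers was 49.1 to 238 CPM in KO libraries and 2882 CPM in WT 4, against 38.2 to 87.4 CPM in the other WT libraries.

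1520401A03Rik was present in 3 WT striata and near the floor in the other WT striatum and in all 4 KO striata. It is annotated as protein coding at chr17:23704488-23722783 on the minus strand. Its counts were 5, 5, 6 and 5 in KO 1 to 4, against 5, 797, 942 and 802 in WT 1 to 4. As levels these were 0.205, 0.180, 0.172 and 0.182 CPM in KO 1 to 4, against 0.170, 22.4, 32.1 and 22.0 CPM in WT 1 to 4. WT 1 therefore stood with the KO libraries, and the genotype groups overlapped. The lowest of the 3 high libraries, WT 4, was 107-fold above the highest of the 5 low ones, KO 1. The group means were 0.185 ± 0.0141 CPM in KO and 19.2 ± 13.5 CPM in WT (SD, n = 4 each), and the WT SD comes from WT 1 against the rest of its group. In bulk tissue, fewer cells of a type and less RNA per cell cannot be told apart. The low libraries were not empty, since each held 5 or 6 reads. WT 4, with 2882 CPM of choroid plexus markers, and WT 2, with 87.4 CPM of them, had 22.0 and 22.4 CPM of 1520401A03Rik.

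**Figure D1:**
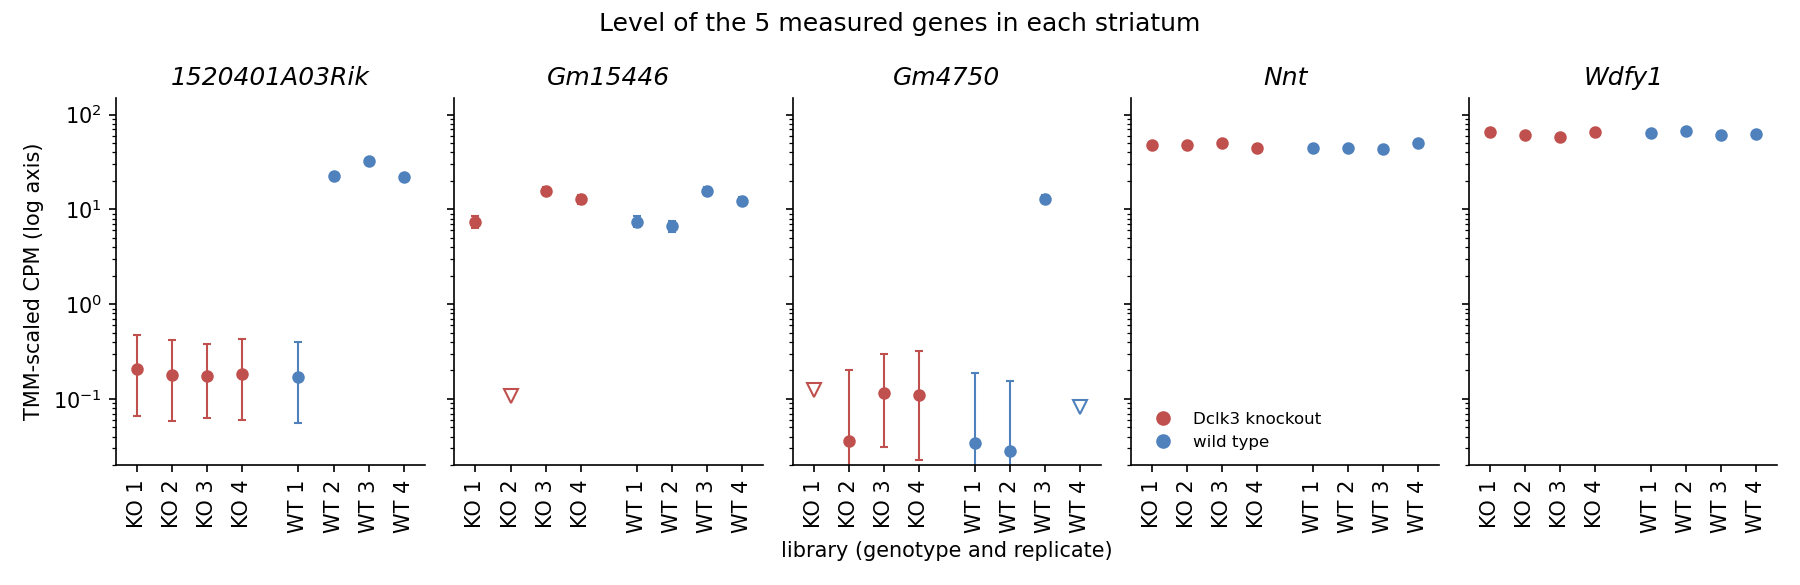
Level of the 5 measured genes in each library, in TMM-scaled CPM on a log axis, with KO libraries left of WT libraries. Bars are 95% Poisson intervals (hidden where smaller than the point), and an open triangle marks a count of 0, drawn at the level of 3 counts. 1520401A03Rik is high in WT 2, WT 3 and WT 4, Gm15446 is at 0 in KO 2, Gm4750 is high in WT 3, and Nnt and Wdfy1 are level.

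Gm15446 was absent from 1 KO striatum and present in the other 7 libraries. Its counts were 181, 0, 547 and 352 in KO 1 to 4, against 219, 237, 458 and 446 in WT 1 to 4. The levels were 7.42, 0, 15.7 and 12.8 CPM in KO 1 to 4, against 7.45, 6.65, 15.6 and 12.2 CPM in WT 1 to 4. With the count of 0 in KO 2 set to the floor of 3 counts, 0.108 CPM, it was 61.8-fold lower than WT 2, the lowest of the others. The Poisson interval of this count of 0 reaches 0.132 CPM. The genotype groups overlapped, with means of 8.998 ± 6.92 CPM in KO and 10.5 ± 4.22 CPM in WT (SD, n = 4 each). The fitted log2 fold change of KO over WT was -0.21 (SE 0.91, 95% interval -2.40 to 1.99). It turned positive without KO 2, at 0.20, and without WT 3, at 0.04.

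The 7 libraries with Gm15446 reads were not at 1 level. KO 1, WT 1 and WT 2 had Poisson intervals of 6.38 to 8.58, 6.49 to 8.50 and 5.83 to 7.55 CPM, which overlap each other. KO 3 and KO 4 had intervals of 14.4 to 17.1 and 11.5 to 14.3 CPM, against 14.2 to 17.1 CPM in WT 3 and 11.1 to 13.4 CPM in WT 4. Each of these 4 intervals lies above the 3 lower ones, and both genotypes are found among the higher and the lower libraries. The 4 higher intervals did not all overlap each other. That of KO 3 lay above that of KO 4, and that of WT 3 lay above that of WT 4. Counting error alone is covered by these intervals, and the spread between mice of like level was not measured.

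Zfp932 was read in every library. It had 16.9, 16.2, 15.6 and 15.9 CPM in KO 1 to 4, against 16.7, 14.9, 18.9 and 15.3 CPM in WT 1 to 4. KO 2, where Gm15446 was at 0, lay inside the range of the other libraries, and WT 3, the highest, had a Poisson interval above those of KO 3, WT 2 and WT 4 (log2 fold change of KO over WT -0.02, SE 0.085; adjusted p = 0.999, edgeR quasi-likelihood test with Benjamini-Hochberg adjustment). The antisense neighbour Gm26808, which overlaps Gm15446 on the other strand and was added after its values were seen, had 0 to 3 counts in every library. Since the setting for strand in the counting was not given in the sources used here, overlapping genes are reported with that limit.

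**Figure D2:**
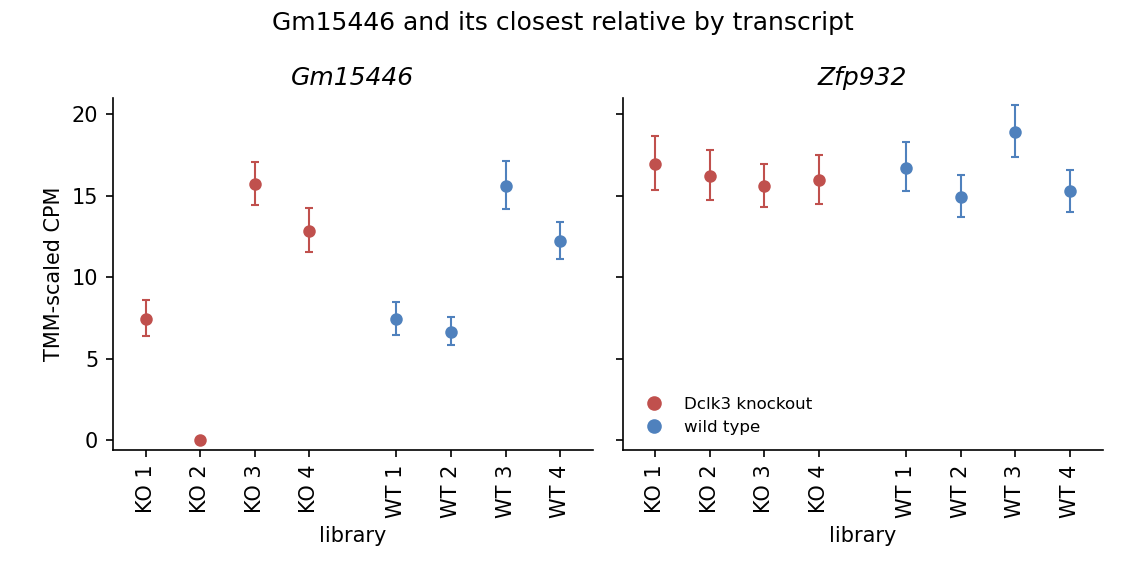
Gm15446 and Zfp932 in each library, in TMM-scaled CPM on a linear axis from 0, with 95% Poisson intervals and KO libraries left of WT libraries. Gm15446 is at 0 in KO 2 and runs from 6.65 to 15.7 CPM elsewhere, while Zfp932 stays between 14.9 and 18.9 CPM.

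Gm4750 was present in 1 WT striatum and at or near the floor in the other 7 libraries. It had 0, 1, 4 and 3 counts in KO 1 to 4, against 1, 1, 380 and 0 counts in WT 1 to 4. The level in WT 3 was 13.0 CPM (Poisson interval 11.7 to 14.3 CPM). This was at least 105-fold higher than in any other library, taking 3 counts as the smallest value of each. Actb, the gene it resembles, did not stand out in WT 3, with 777, 855, 800 and 770 CPM in KO 1 to 4, against 870, 795, 841 and 828 CPM in WT 1 to 4. Gm4750 is X-linked. Each library had 0 to 2 counts of Xist and 74.2 to 89.5 CPM of the Y-linked Ddx3y, so each read as male by these genes. Eif2s3y, also Y-linked, ranged over 15.2 to 48.3 CPM and was lowest in KO 4. The WT mean of Gm4750 rests on WT 3, so no mean is given.

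Nnt and Wdfy1 were not present or absent between mice by their totals: both were abundant in all 8 striata. Nnt, at chr13:119335448-119408997 on the minus strand, had 47.6, 47.7, 50.8 and 44.8 CPM in KO 1 to 4, against 45.0, 44.4, 43.1 and 50.05 CPM in WT 1 to 4. The groups overlapped, at 47.7 ± 2.46 CPM in KO and 45.6 ± 3.05 CPM in WT (SD, n = 4 each), and the log2 fold change of KO over WT was 0.07 (SE 0.064, 95% interval -0.07 to 0.21). The highest library was 1.18-fold above the lowest. These are totals over the gene, and do not show which exons were covered. Whether any of these mice lacked a run of Nnt exons was therefore not tested. GENCODE M21 places a second identifier named Nnt over the same span, which was not analysed here.

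Wdfy1, at chr1:79702262-79776143 on the minus strand, had 65.8, 61.7, 58.1 and 66.1 CPM in KO 1 to 4, against 64.5, 66.6, 60.5 and 62.2 CPM in WT 1 to 4. The groups overlapped at 62.9 ± 3.79 CPM in KO and 63.4 ± 2.66 CPM in WT (SD, n = 4 each). The log2 fold change of KO over WT was -0.01 (SE 0.060, 95% interval -0.14 to 0.12), and the highest library was 1.15-fold above the lowest. Over all 8 libraries the coefficient of variation was 4.81% for Wdfy1 and 6.01% for Nnt. Mrpl44, a mitochondrial ribosomal protein gene, overlaps the start side of Wdfy1 on the opposite strand. It had 19.8 to 21.4 CPM in KO, against 19.1 to 23.1 CPM in WT.

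Of the 5 measured genes, 3 passed the filter on low counts and entered the genotype test (Gm15446, Nnt and Wdfy1). 1520401A03Rik and Gm4750, high in fewer libraries than the filter asks for, did not. None of the 3 was called between KO and WT at an adjusted p under 0.05, where 1 gene of 16511 was called in all (0.00606%), and nothing is read from this. With no filter, the edgeR log2 fold change of KO over WT for 1520401A03Rik was -6.68, and without WT 1, where it passed the filter through the WT libraries in which it is high, it was -7.08. These fold changes follow from the counts on which the gene was selected.

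To see how common such patterns are, every gene was ranked by the widest gap between neighbouring libraries once its log2(CPM + 0.5) values were sorted, without regard to genotype. A gene was called on-off when this gap was at least 1, made up at least 0.5 of the whole range, had at least 2 libraries on each side, and at least 2 libraries reached 1 CPM. Under that rule 3 of 14815 genes were on-off (0.0202%), and 1520401A03Rik was the only 1 of the 6 members among them. The others were Dclk3 itself, with a gap of 1.53 between the genotypes, and Gal, the gene of the neuropeptide galanin, with a gap of 1.62. Gal had 0.246, 0.144, 0.230 and 2.45 CPM in KO 1 to 4, against 0.272, 2.08, 0.341 and 0.110 CPM in WT 1 to 4, so KO 4 and WT 2 were its high libraries.

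When a single library was enough on either side, 70 of the 14815 genes were on-off (0.472%), 1520401A03Rik and Gm15446 among them. When, in addition, 1 library sufficed to reach 1 CPM, a rule chosen after seeing the data, 107 of 15185 genes were on-off (0.705%). These included 1520401A03Rik, Gm15446 and Gm4750. Nothing is read from that count, since the members were listed for this pattern. By the size of the gap 1520401A03Rik ranked 1, with 5.00 on the log2 scale (89.1% of its range), Gm4750 ranked 2 with 4.45, and Gm15446 ranked 4 with 3.84. Nnt and Wdfy1 ranked 11829 and 13938, with gaps of 0.08 and 0.06, below the median gap of 0.13 over all genes.

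**Figure D3:**
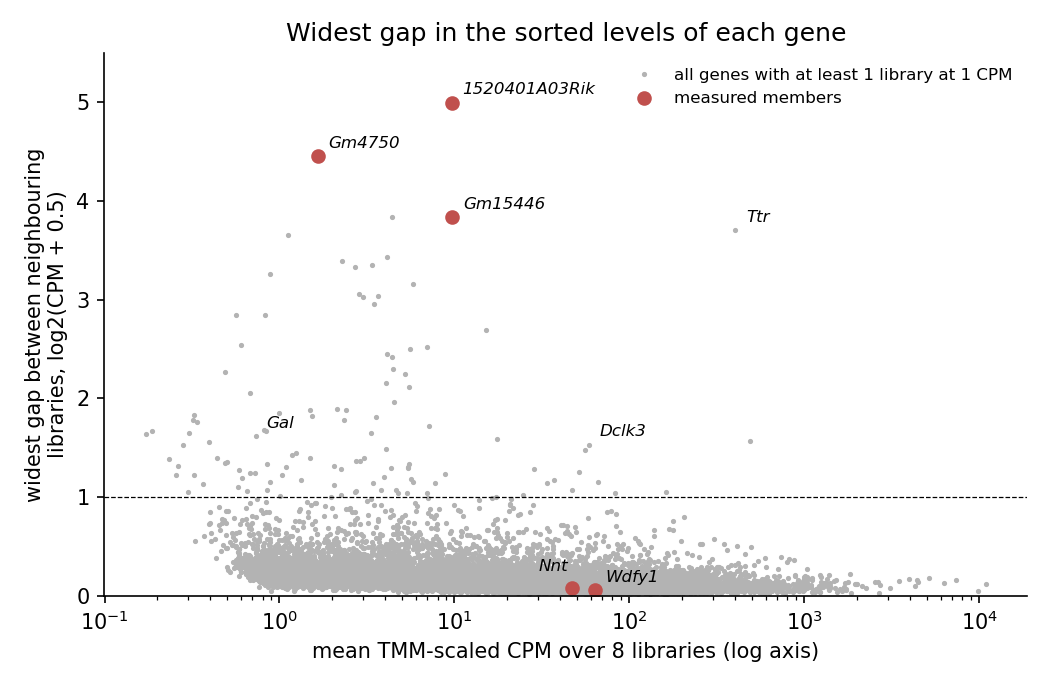
Widest gap between neighbouring libraries on the log2(CPM + 0.5) scale against the mean level of each of 15185 genes (log axis). Red points are the 5 measured members, and the dashed line marks a gap of 1. 1520401A03Rik, Gm4750 and Gm15446 stand at 5.00, 4.45 and 3.84, while Nnt and Wdfy1 lie at 0.08 and 0.06.

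Most genes on-off in a single library were high in WT 4, WT 2 or KO 4. Of 104 such genes, 100 were high in 1 library, and 65 of these were high in WT 4, 20 in WT 2 and 13 in KO 4. All 5 choroid plexus markers were among those of WT 4. Gm4750 was the only gene high in WT 3 alone, and 1 gene was high in KO 3 alone. Only 4 genes were low in a single library, and Gm15446 was the only one low in KO 2. The other 3, named after their values were seen, were Nr4a1 in KO 1 and Col5a1 and Eif2s3y in KO 4, with lowest levels of 32.6, 10.7 and 15.2 CPM, so Gm15446 was the only one of the 4 without reads in its low library.

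The on-off members were high in different but overlapping sets of libraries. 1520401A03Rik was low in KO 1 to 4 and WT 1, Gm15446 in KO 2 and Gm4750 in every library except WT 3. KO 2 therefore lacked all 3 beyond the floor or a few reads, and WT 3 was high for all 3. The other 6 libraries carried 1 or 2 of them: Gm15446 alone in KO 1, KO 3, KO 4 and WT 1, and Gm15446 with 1520401A03Rik in WT 2 and WT 4. The genes lie on different chromosomes, 17, 5 and X.

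The genes with patterns most like each member were sought among 665 genes that averaged 1 CPM or more and ranged over at least 1 on the log2 scale. Likeness was the mean absolute difference over the 8 libraries after each gene was scaled from 0 in its lowest library to 1 in its highest. The closest to 1520401A03Rik was Sulf1, an extracellular sulfatase, with a difference of 0.172, followed by Dclk3 with 0.194. Sulf1 had 29.0, 31.8, 30.7 and 28.2 CPM in KO 1 to 4, against 30.1, 48.7, 35.0 and 60.5 CPM in WT 1 to 4, so its order among the high libraries differed from that of 1520401A03Rik. The closest to Gm15446 were Piwil2 (0.256) and Slc4a11 (0.259), and to Gm4750 Echdc2 (0.231) and Gm36251 (0.261). Echdc2 reached 9.89 CPM in WT 3, against 4.07 to 6.80 CPM in the other libraries. For Nnt, whose range was narrow, the closest were C1ra (0.101) and Ogn (0.108), and for Wdfy1 Gpr4 (0.110) and Fzd10 (0.165).

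Pkmyt1, the nearest gene beside 1520401A03Rik, ran opposite to it. Pkmyt1 encodes a kinase that holds the cell cycle at entry into mitosis, and it lies at chr17:23726336-23736735 on the plus strand, with 3552 bases between it and the start side of 1520401A03Rik, so that the genes are read away from each other. It had 3.65, 3.91, 4.20 and 3.94 CPM in KO 1 to 4, against 3.88, 2.22, 2.46 and 2.25 CPM in WT 1 to 4. The 3 lowest libraries, WT 2, WT 3 and WT 4, were the 3 in which 1520401A03Rik was high, and WT 1 lay inside the KO range of Pkmyt1. The means were 3.93 ± 0.224 CPM in KO and 2.70 ± 0.792 CPM in WT (SD, n = 4 each). The genotype difference did not pass the test over all genes (log2 fold change 0.55, SE 0.18; unadjusted p = 0.0111, adjusted p = 0.999, edgeR quasi-likelihood test with Benjamini-Hochberg adjustment). These are 72 to 146 counts a library, and the Poisson interval of KO 1, 2.93 to 4.49 CPM, overlapped that of WT 3, 1.92 to 3.09 CPM.

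The genes on either side of this pair had no such gap between the same libraries. Tnfrsf12a, the receptor of the cytokine TWEAK, lies on the other side and had 2.58, 2.15, 2.18 and 3.91 CPM in KO 1 to 4, against 3.23, 3.82, 3.10 and 3.04 CPM in WT 1 to 4. Paqr4, which overlaps the end of Pkmyt1 on the opposite strand and was named after its values were seen, had 66.9, 61.2, 58.2 and 64.8 CPM in KO 1 to 4, against 67.6, 55.7, 59.8 and 52.5 CPM in WT 1 to 4. For both the adjusted p was 0.999 by the edgeR quasi-likelihood test with Benjamini-Hochberg adjustment.

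**Figure D4:**
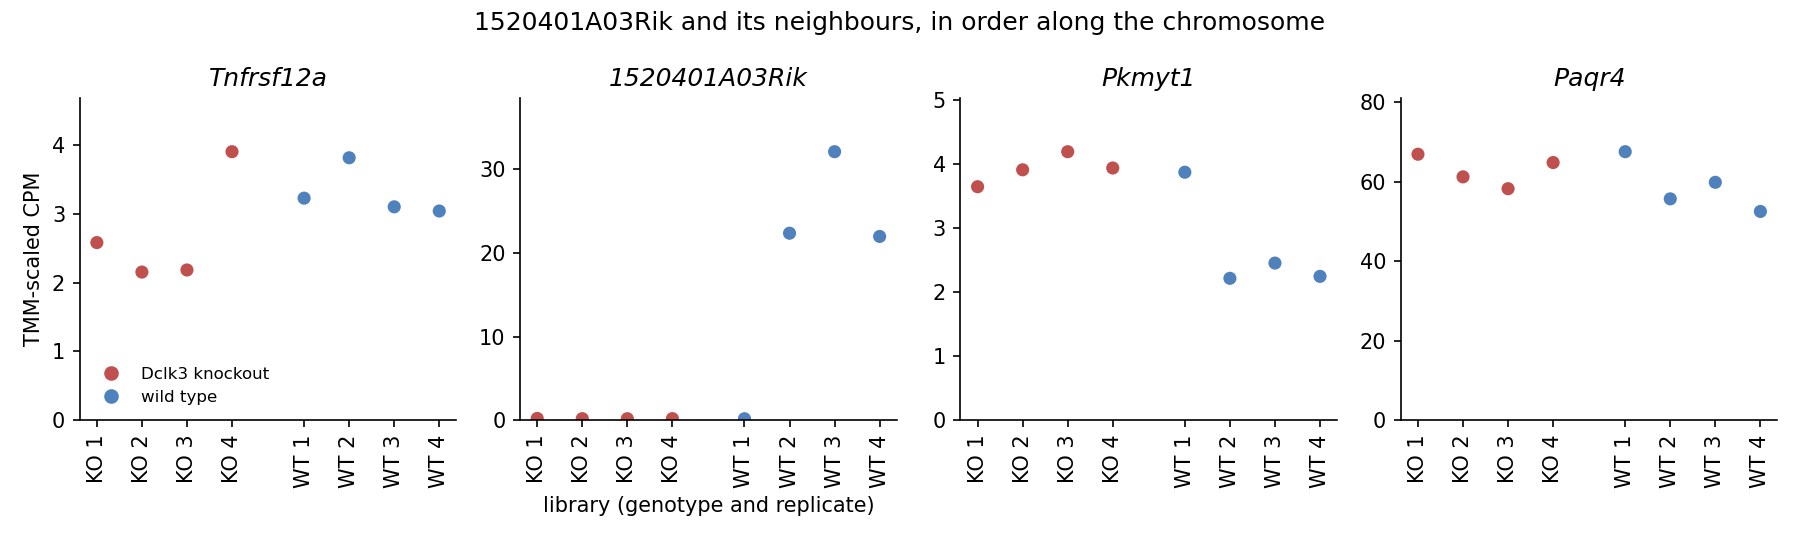
Tnfrsf12a, 1520401A03Rik, Pkmyt1 and Paqr4 in each library, in TMM-scaled CPM on linear axes from 0 that differ between panels, with KO libraries left of WT libraries. Pkmyt1 is at 2.22 to 2.46 CPM in WT 2, WT 3 and WT 4, where 1520401A03Rik is at 22.0 to 32.1 CPM, and at 3.65 to 4.20 CPM in the other libraries.

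A RefSeq start of 1520401A03Rik is printed because this gene had the widest gap between libraries. RefSeq on GRCm38.p6 gives 5 starts for it. Only the window of the first one listed is shown, at chr17:23720956-23721255 on the minus strand, with 250 bases before the start and 50 after. It was taken by its place in the list, and the windows of the other starts were not examined. Gm15446 has 1 window, at chr5:109933313-109933612 on the plus strand, and 2 of the 6 members were found in the promoter table. Both windows lie inside the GENCODE M21 spans, away from the start sides at chr17:23722783 for 1520401A03Rik and chr5:109923400 for Gm15446. The RefSeq starts shown therefore differ from the GENCODE starts used for distances to neighbours. Capitals mark CG pairs.
1520401A03Rik: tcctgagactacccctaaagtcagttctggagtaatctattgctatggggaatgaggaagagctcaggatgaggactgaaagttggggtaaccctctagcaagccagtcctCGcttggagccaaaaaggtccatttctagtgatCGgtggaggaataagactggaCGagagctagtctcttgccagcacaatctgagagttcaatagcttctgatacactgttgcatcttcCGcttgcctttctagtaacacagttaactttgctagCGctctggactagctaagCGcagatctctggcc
Gm15446: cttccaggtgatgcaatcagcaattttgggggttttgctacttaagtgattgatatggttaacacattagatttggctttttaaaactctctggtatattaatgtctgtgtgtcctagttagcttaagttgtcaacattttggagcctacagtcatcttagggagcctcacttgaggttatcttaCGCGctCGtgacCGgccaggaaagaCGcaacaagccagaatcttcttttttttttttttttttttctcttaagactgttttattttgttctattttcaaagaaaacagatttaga
The first holds 6 CG pairs and 48.3% G and C, and the second 5 CG pairs and 36.3%, against medians of 7 pairs and 52.7% over 32851 promoters. Fewer CG pairs than these were found in 43.6% of promoters for 1520401A03Rik and 38.0% for Gm15446. The letters TATAAA were found on neither strand of either window, and 13.6% of all promoters hold them.

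Within 1 Mb of the 5 measured members, 122 other genes were tested and none was called between KO and WT by the edgeR quasi-likelihood test, while 5 had an unadjusted p under 0.05. Over all 16511 genes, 620 had one (3.76%) and 1 was called (0.00606%). The median log2 fold change of the 122 was -0.0018, against -0.0011 over all genes, and none of them was on-off. The nearest genes of the other members overlapped between genotypes. Around Gm4750, Gpr173 had 15.9 to 17.99 CPM in KO and 17.9 to 20.4 CPM in WT, and Shroom2 had 118 to 137 CPM in KO and 130 to 148 CPM in WT. Around Nnt, Fgf10 had 5.22 to 6.43 CPM in KO and 3.65 to 6.25 CPM in WT, and Paip1, a regulator of translation, had 71.9 to 81.8 CPM in KO and 68.6 to 77.8 CPM in WT. Beside Wdfy1, Ap1s3 had 1.11 to 1.58 CPM in KO and 1.22 to 1.54 CPM in WT, and beside Gm15446, 4930522L14Rik had 1.02 to 1.54 CPM in KO and 0.795 to 1.26 CPM in WT.

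Other genes known to differ between C57BL/6 substrains were listed beside Nnt, and none was called between KO and WT. Of all 16511 genes tested 1 was called (0.00606%). That test cannot show a difference between mice that runs within both genotype groups. A total over a gene also need not show a change in its sequence, and the substrain of each mouse was not tested. Of 8 listed, 6 were tested: 3 had a log2 fold change above 0 and 3 below, with a median of 0.01. Gabra2, a subunit of the GABA-A receptor, had 169 to 187 CPM in KO and 170 to 185 CPM in WT. Cyfip2, a regulator of the actin cytoskeleton, had 1142 to 1367 CPM in KO and 1212 to 1446 CPM in WT. Ide, which encodes insulin-degrading enzyme, had 44.7 to 49.7 CPM in KO and 43.1 to 54.9 CPM in WT, and its neighbour Fgfbp3 had 2.85 to 4.42 CPM in KO and 3.11 to 3.67 CPM in WT. Nlrp12 and Mmrn1 were at 0.102 CPM or less in every library, so they could not be read in this tissue.

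Crb1, a polarity gene of the retina with a known mutation in one substrain, was the most uneven of this list. It had 2, 8, 36 and 53 counts in KO 1 to 4, against 10, 38, 26 and 36 counts in WT 1 to 4, or 0.0820 to 1.93 CPM in KO and 0.340 to 1.07 CPM in WT. KO 1, KO 2 and WT 1 were its 3 lowest libraries. The genotype groups overlapped, and the log2 fold change of KO over WT was 0.03 (SE 0.70, 95% interval -1.58 to 1.65).

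No gene was called in the lists of pathways around the named members. Over all 16511 genes tested 1 was called (0.00606%), so nothing is read from the absence of calls in these lists. Of 18 genes of mitochondrial NADPH and peroxide handling, the setting in which Nnt works, 8 had a log2 fold change above 0 and 10 below, with a median of -0.03 and none called. Me3, the mitochondrial malic enzyme, had 56.9 ± 6.06 CPM in KO and 63.8 ± 2.30 CPM in WT (SD, n = 4 each; unadjusted p = 0.0489, adjusted p = 0.999, edgeR quasi-likelihood test with Benjamini-Hochberg adjustment). Idh2, the mitochondrial NADP-dependent isocitrate dehydrogenase, had 38.8 ± 2.73 CPM in KO and 35.9 ± 3.19 CPM in WT, and Glrx2, a mitochondrial glutaredoxin, had 62.1 ± 3.13 CPM in KO and 59.0 ± 1.41 CPM in WT.

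Among the nucleotidases related to Entpd4, 10 of 12 listed genes were tested, with 5 above 0 and 5 below, a median of 0.01 and none called. Nt5e, which makes adenosine outside the cell, had 19.97 ± 4.20 CPM in KO and 17.2 ± 1.54 CPM in WT (SD, n = 4 each). Entpd7 had 9.83 ± 1.77 CPM in KO and 10.96 ± 1.28 CPM in WT, and Entpd1 had 23.9 ± 0.489 CPM in KO and 22.7 ± 2.03 CPM in WT.

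Of 14 genes of TLR3 and TLR4 signalling through TRIF and relatives of Wdfy1, 8 were above 0 and 6 below, with a median of 0.03 and none called. Irf7, an interferon regulatory factor, had 2.74 ± 0.491 CPM in KO and 1.98 ± 0.292 CPM in WT (SD, n = 4 each; unadjusted p = 0.0218, adjusted p = 0.999, edgeR quasi-likelihood test with Benjamini-Hochberg adjustment). Wdfy4 had 3.46 ± 0.338 CPM in KO and 4.18 ± 0.892 CPM in WT, and Wdfy2 had 7.28 ± 0.269 CPM in KO and 8.06 ± 0.517 CPM in WT.

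KRAB zinc finger proteins, a large family in mice, silence DNA through Trim28 and its partners, and 12 such cofactors were listed because Gm15446 resembles a zinc finger gene. Of these, 4 were above 0 and 8 below, with a median of -0.03 and none called. Hdac1, a histone deacetylase, had 6.64 ± 0.314 CPM in KO and 5.56 ± 0.672 CPM in WT (SD, n = 4 each; unadjusted p = 0.0460, adjusted p = 0.999, edgeR quasi-likelihood test with Benjamini-Hochberg adjustment). Cbx5, a heterochromatin protein, had 275 ± 5.70 CPM in KO and 294 ± 29.5 CPM in WT, and Atf7ip, a partner of the methyltransferase Setdb1, had 93.2 ± 4.18 CPM in KO and 98.7 ± 8.08 CPM in WT.

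**Figure D5:**
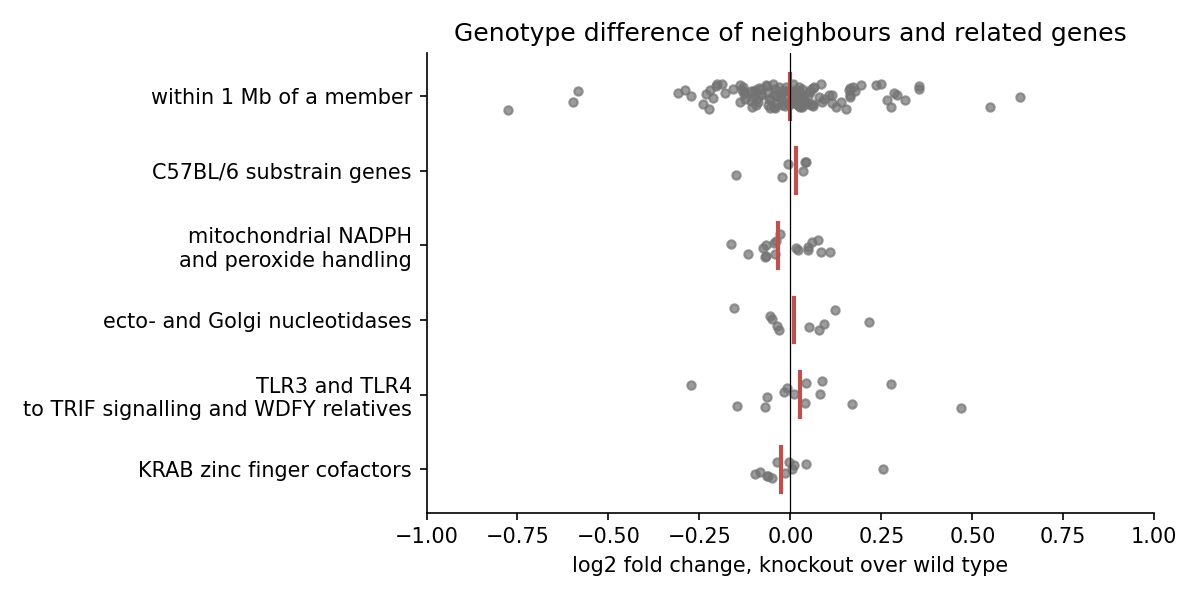
Log2 fold change of KO over WT for the 122 genes tested within 1 Mb of a member and for the 5 lists of related genes; each point is a gene and the red bar is the median of its row. The medians lie between -0.03 and 0.03, and no gene shown was called, against 1 of 16511 in all.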

How the data were processed

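Striatal mRNA of 4 KO and 4 WT mice was sequenced from poly(A)-selected, strand-marked libraries, per the labels' protocols. The deposited values are raw counts for each Ensembl identifier, without normalization by the authors. The submitters' processing notes name bcl2fastq 2.17.1.14 and the build mm10; the aligner, the counter and its strand setting were not given in the sources used here. Symbols and positions came from GENCODE M21 (31292 of 31417 identifiers matched; the other 125 held 0.0436% of counts), and promoters from RefSeq.

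The 6 members and the lists of related genes were chosen with earlier results of these data known. Genotype was tested with edgeR 4.0.16 (R 4.3.3; TMM, filterByExpr with a minimum count of 10, robust quasi-likelihood fit, Benjamini-Hochberg adjustment over 16511 genes, threshold 0.05). The filter removed 14906 genes, of which 2001 had no count. DESeq2 1.42.0 and limma 3.58.1 (voom) were alternatives, with other scalings and filters, a replicate block and each library left out. Replicates of one genotype differed beyond sampling noise (chi-square per degree of freedom 7.07 to 32.1), and each library is 1 mouse.

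Besides the members and Dclk3, genes named in the text are on-off genes with the widest gap (up to 12, unnamed clones aside), the 2 genes closest in pattern to each member, the nearest gene of at least 1 CPM on each side, the closest relative by transcript, up to 3 genes of smallest p in each list and the substrain genes, of which 1 is not reported here. Others are said to be named after their values were seen.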

Additional observations from a re-analysis of the deposited data

Results flagged for a closer look

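The level of Gm4750 in WT 3, 12.96 CPM, stood far from the other WT libraries, which had 1, 1 and 0 counts. The gap to the next WT library was 0.997 of the whole WT range, above the critical value of Dixon's test for 4 samples, 0.829. Chance flags about 1 in 20 groups of this size, and Gm4750 was selected on these same counts, so the flag restates that choice and supports nothing. The counts of the near-identical Gm8464 were not analysed here, and the part of read assignment in this value was not tested.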

How the results depend on the processing

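The count of genes called between KO and WT, 1 in the edgeR fit, was 2 with the DESeq2 Wald test and 3 with that test and no filter before it; leaving out each library in turn gave 1 to 2, with 2 without WT 1. The members called, 0 of 3, became 1 with the DESeq2 Wald test with no filter, chosen after seeing the data, and 0 to 1 over the left-out libraries, with 1 without WT 1. That gene was 1520401A03Rik in both cases, selected on these counts, so nothing is read from it. Dclk3 kept its direction in all 16 alternatives but missed the threshold with no filter on low counts (log2 fold change -2.07, adjusted p = 0.0647), where 29416 genes shared the adjustment. The 3 on-off genes became 1 with a gap of at least 2, 70 with 1 library on each side and 107 when 1 library at 1 CPM also sufficed, and leaving out a library gave 3 to 6 (5 without KO 1, 5 without KO 2 and 6 without WT 1). On-off members, 1 of 6, became 2 and 3 under those 2 looser rules and stayed at 1 with each library left out. The log2 fold change of Gm15446 was -2.52 with limma-voom, against -0.21, and -0.63 to 0.20 over the left-out libraries; the cause was not tested. The substrain genes, neighbours and pathway lists had 0 calls in every alternative run. The replicate block gave 1 gene called, 0 members called and Dclk3 at -2.06 (adjusted p = 0.0295, edgeR). The same-numbered libraries deviated together at correlations of 0.04, 0.02, 0.05 and -0.28, so the numbers were not taken as pairs.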
